A study of Mus musculus with 18 samples.

Results

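The 10 genes described here carry glucose into the cell and through glycolysis. They are the hexokinases HK1, HK2 and HK3, the glucose transporters SLC2A1 and SLC2A3, the phosphofructokinase genes PFKL and PFKP, the pyruvate kinase gene listed as PKM2 (current symbol Pkm), the lactate dehydrogenase gene LDHA and the pyruvate dehydrogenase kinase gene PDK1. They are 10 of 25629 listed gene names and were taken by name, because HK3 was higher after irradiation in all 3 settings of the study. HK3 is therefore described without a test wherever irradiated and control cells are compared. The set reaches past the entry of glucose, since PKM2, LDHA and PDK1 act at its end.

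Transcripts were measured by RNA sequencing in LSK cells of C57Bl/6 mice, marrow cells that lack lineage markers, carry cKit and Sca1 and include the stem cells, in 6 groups of 3 libraries. Irradiated mice had been given 2.5 Gy of gamma rays from Cs-137 and were left for 9 weeks or longer, while control mice carry the condition "normal". The 6 freshly sorted libraries (3 control, 3 irradiated) each held cells of 3 pooled mice. The 12 culture libraries each began with 200 LSK cells of 1 mouse, kept for 6 days in mouse SCF and human Flt3 ligand, IL-11 and IL-6 and then sorted again, and formed 4 groups, since control and irradiated cells were each kept with and without DL1. Ages are not given. DL1 was read as the Notch ligand Delta-like 1, and how it was offered to the cells is not stated.

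Glucose enters cells through SLC2A transporters, of which SLC2A1 (GLUT1) is widespread and SLC2A3 (GLUT3) has a high affinity for glucose. Hexokinases then phosphorylate it and so trap it in the cell. HK1 is the form of most tissues, HK2 is induced by growth signals and hypoxia, and HK3 is found mainly in myeloid cells, where the factors PU.1 and C/EBPα are described as its activators. Phosphofructokinase commits the sugar to glycolysis, pyruvate kinase and lactate dehydrogenase end it, and PDK1 holds pyruvate back from mitochondria. Quiescent stem cells are known to lean on glycolysis.

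Promoter sequences are shown for 4 genes, because HK1 and HK3 were the hexokinases that differed between groups, HK2 was the one that did not pass a test in any comparison, and LDHA was the most abundant member. Each is the 250 bases before a RefSeq start in GRCm38.p6, written 5′ to 3′ on the strand of the gene, and the build behind the expression values is not known to be the same. They lie at chr13:55021386-55021635 (minus strand), chr10:62340422-62340671 (minus strand, the start of the second promoter listed for HK1), chr6:82774455-82774704 (minus strand) and chr7:46845554-46845803 (plus strand). Capitals mark matches, on either strand, to the hypoxia response core (ACGTG or GCGTG, which also overlaps the E-box), the PU.1 core (GAGGAA), the C/EBP sequence TTGCNNAA or the RBPJ core (TGGGAA), RBPJ being the DNA-binding partner of Notch.
HK3: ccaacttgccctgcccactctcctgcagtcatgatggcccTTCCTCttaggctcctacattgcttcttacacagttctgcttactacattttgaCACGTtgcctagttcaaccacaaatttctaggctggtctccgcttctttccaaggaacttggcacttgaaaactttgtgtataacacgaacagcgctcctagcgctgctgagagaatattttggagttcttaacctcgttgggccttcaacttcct
HK1: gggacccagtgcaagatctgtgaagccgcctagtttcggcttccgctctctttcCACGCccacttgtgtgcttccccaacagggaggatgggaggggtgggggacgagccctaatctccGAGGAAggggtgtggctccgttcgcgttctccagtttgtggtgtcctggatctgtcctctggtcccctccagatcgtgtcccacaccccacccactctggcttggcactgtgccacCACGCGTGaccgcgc
HK2: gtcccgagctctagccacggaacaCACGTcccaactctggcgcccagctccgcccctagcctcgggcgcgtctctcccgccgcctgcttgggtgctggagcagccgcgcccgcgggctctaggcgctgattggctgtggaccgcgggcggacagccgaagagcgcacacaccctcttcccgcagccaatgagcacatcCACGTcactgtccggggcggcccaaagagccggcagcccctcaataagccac
LDHA: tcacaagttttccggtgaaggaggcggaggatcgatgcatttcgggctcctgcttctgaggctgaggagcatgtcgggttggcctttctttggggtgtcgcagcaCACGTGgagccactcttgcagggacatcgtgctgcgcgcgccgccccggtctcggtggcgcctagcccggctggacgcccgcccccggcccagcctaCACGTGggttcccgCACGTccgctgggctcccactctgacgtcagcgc

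The HK3 promoter held 1 hypoxia core, reading CACGT, and 1 PU.1 core, reading TTCCTC, both on the opposite strand. The HK1 promoter shown held 3 hypoxia cores and 1 PU.1 core, the HK2 promoter 2 hypoxia cores and the LDHA promoter shown 5. Each CACGTG of LDHA reads as a core on both strands and counts as 2, as does the CACGCGTG of HK1. HK1 and LDHA each have another listed promoter. That of HK1 held no match to any of the marked sequences, at a G and C content of 49.6%. That of LDHA held 1 hypoxia core, at 54.4%. In all, 13 promoters of 9 members were found in the table, and SLC2A3 was not among them. A hypoxia core stood in 10 of the 13, against 38.6% of 32851 promoters of the same length, a PU.1 core in 2 of 13 against 23.3%, the C/EBP sequence in 1 of 13 (PKM2) against 9.56%, and the RBPJ core in 0 of 13 against 21.6%. The promoters shown for HK2 and LDHA had a G and C content of 69.6 and 67.2%, that for HK1 62.8% and that for HK3 47.2%. The median of all promoters was 52.4%. These matches describe letters in a window and not binding.

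Relative sequencing depth ranged from 0.488 to 1.09 of the first control culture and from 0.645 to 1 of the first freshly sorted control. The lowest value belonged to irradiated replicate 2 with DL1. Across genes, r between 2 cultures was 0.988 to 0.997 inside a group and 0.941 to 0.995 otherwise. The sort markers were present in every group. KIT averaged between 34.3 and 39.0 FPKM (fragments per unit of transcript length and of library size) in the culture groups and 106 and 112 in the freshly sorted ones, and LY6A, which encodes Sca1, between 496 and 596 and 149 and 166. Neither passed the test in any comparison. In these bulk libraries, fewer cells of a type and less RNA per cell cannot be told apart.

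In cultures without DL1, irradiated cells carried more HK3 and HK1 and less SLC2A3 and, by a small margin lost in 7 of 15 alternative settings, less LDHA than control cells. In cultures with DL1 they carried more HK3 and less SLC2A3, and the changes of HK1 and LDHA did not pass. Cultures with DL1 carried less HK3 and HK1 and more SLC2A3 than those without. Of the enzymes of the steps between, PFKL and PKM2 passed in no comparison. PFKP was lower with DL1 in control cultures alone, a call lost in 4 of 15 alternative settings. Changes are given as log2 fold changes ± SE from limma on log2(FPKM + 1), with p adjusted by Benjamini-Hochberg over all genes tested and a threshold of 0.05. All 10 genes had the mean FPKM of at least 1 that testing asked for in both tables. Without DL1, 1 of the other 9 members rose after irradiation (HK1) and 2 fell (SLC2A3, LDHA), where 13.8% of 12025 genes rose and 15.9% fell (29.7% in all). With DL1, 0 rose and 1 fell (SLC2A3), where 2.5% rose and 0.64% fell (3.14% in all). There 5 of 9 had an unadjusted p under 0.05, beside 18.6% of genes. The number of all genes called moved by over 1.5 times when single libraries were left out. Without DL1 it was 3568, 1876 without control replicate 2 and 2180 without irradiated replicate 1. With DL1 it was 378, and between 105 and 130 without replicate 1 or 3 of the controls or 1 or 2 of the irradiated cultures. The median change of the 9 members was -0.06 without DL1 and -0.12 with it, beside medians of -0.03 and -0.02 over all genes.

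The rise of HK3 for which the genes were chosen does not use DL1 against none, so all 10 were tested. That rise was read in the same culture libraries, and earlier results of these data were known. In control cultures 1 member rose with DL1 (SLC2A3) and 3 fell (HK1, HK3, PFKP), where 13.9% of genes rose and 12.3% fell. In irradiated cultures 1 rose (SLC2A3) and 2 fell (HK1, HK3), where 24.4% rose and 17% fell. The median change of the 10 was 0.04 and -0.04, beside 0.04 and 0.06 over all genes. The members called, 4 of 10 and 3 of 10, stand beside 26.2 and 41.4% of all genes. The groups with and without DL1 did not overlap in control cultures for HK2, SLC2A3 and LDHA (higher with DL1) and HK1, HK3 and PFKP (lower), where 29.4% of genes were separate and higher and 18.9% separate and lower. In irradiated cultures they did not overlap for SLC2A3 (higher) and HK1, HK3 and PFKP (lower), where the shares were 28.7 and 19.7%.

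**Figure D1:**
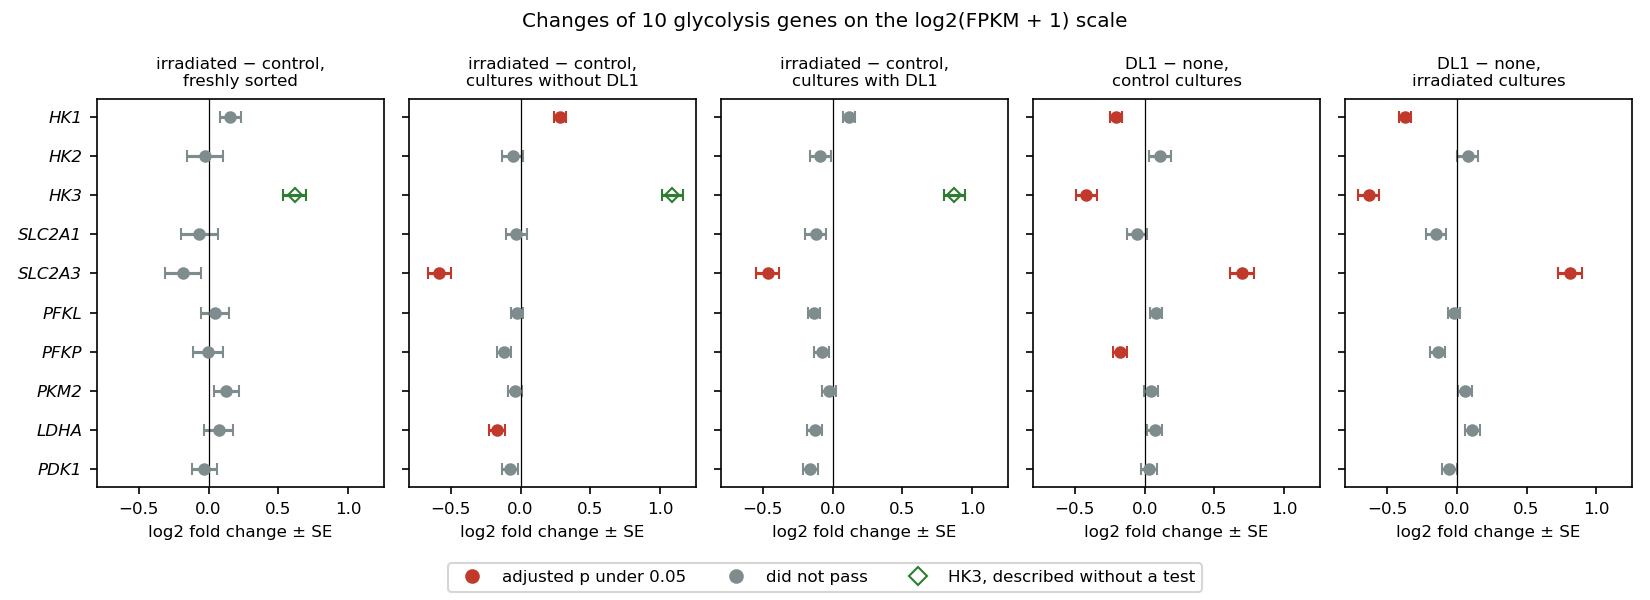
Log2 fold changes ± SE of the 10 genes on the log2(FPKM + 1) scale in 5 comparisons, from limma. Red points passed an adjusted p of 0.05, grey points did not, and the open diamonds are HK3 after irradiation, described without a test. In the comparisons of DL1 against none, HK1 and HK3 lie left of 0 in control and irradiated cultures. SLC2A3 lies right of 0 there, at 0.70 and 0.81.

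HK3 stood at 47.1, 46.8 and 46.1 FPKM in the 3 control cultures and at 103, 104 and 93.8 in the 3 irradiated ones. With DL1 it was 33.2, 39.5 and 31.8 in control and 62.3, 69.3 and 61.8 in irradiated cultures. No 2 of the 4 groups overlapped, and the order from low to high was control with DL1, control, irradiated with DL1 and irradiated. The means were 34.8 ± 4.07, 46.7 ± 0.557, 64.5 ± 4.19 and 100.4 ± 5.73 (SD, n = 3). Irradiated cultures thus had 2.15 times the control mean without DL1 and 1.85 times with it, the values for which the set was chosen, and the 2 ratios differ by -0.21 ± 0.11 on the log2 scale. DL1 lowered HK3 to 0.746 of the mean in control cultures (-0.42 ± 0.075, adjusted p = 0.00137) and to 0.642 in irradiated ones (-0.63 ± 0.075, adjusted p = 4.43e-05). Each culture with DL1 was below each culture without it at the same irradiation state.

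HK1, the general hexokinase, moved the same way over a narrower range. Control cultures had 60.4, 60.8 and 60.9 FPKM and irradiated ones 74.0, 76.9 and 71.3. With DL1 the values were 50.9, 53.7 and 53.0 in control and 56.8, 59.0 and 55.5 in irradiated cultures. The groups did not overlap, yet their order differed from that of HK3, since irradiated cultures with DL1 (57.1 ± 1.73) lay below control cultures without it (60.7 ± 0.274), while for HK3 they lay above. HK1 rose after irradiation without DL1 (0.28 ± 0.042, adjusted p = 9.52e-04). With DL1 its change was 0.12 ± 0.042 and did not pass (adjusted p = 0.158), although the 3 irradiated cultures were above the 3 controls. The difference between both changes, -0.16 ± 0.060, did not pass either (adjusted p = 0.367). DL1 lowered HK1 in control cultures (-0.21 ± 0.042, adjusted p = 0.00333) and in irradiated ones (-0.37 ± 0.042, adjusted p = 3.28e-05).

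HK2, the inducible hexokinase, ranged from 45.3 FPKM in an irradiated culture to 59.0 in an irradiated culture with DL1, and every group overlapped its neighbour in the order of means. Its adjusted p was between 0.323 and 0.613 in the 4 comparisons of cultures. In control cultures the 3 values with DL1 (54.2, 54.7 and 55.9) lay above the 3 without (49.8, 50.5 and 52.4), with a change of 0.11 ± 0.076 that did not pass (adjusted p = 0.323).

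The mix of hexokinase transcripts therefore differed between groups, as FPKM is scaled by length. HK3 made up 29.5 ± 0.536% of the summed FPKM of the 3 genes in control cultures and 44.9 ± 1.71% in irradiated ones (SD, n = 3). With DL1 it made up 24.4 ± 2.07 and 37.2 ± 2.12%. HK3 was the leading hexokinase in irradiated cultures both without and with DL1. HK1 led in controls without DL1, with 38.4 ± 0.114%, and HK2 led in controls with DL1, with 38.7 ± 1.46%. The sum itself was 158 ± 0.997 FPKM in control, 223 ± 4.34 in irradiated, 142 ± 4.96 in control with DL1 and 173 ± 5.18 in irradiated cultures with DL1. These shares contain HK3 and are a description.

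**Figure D2:**
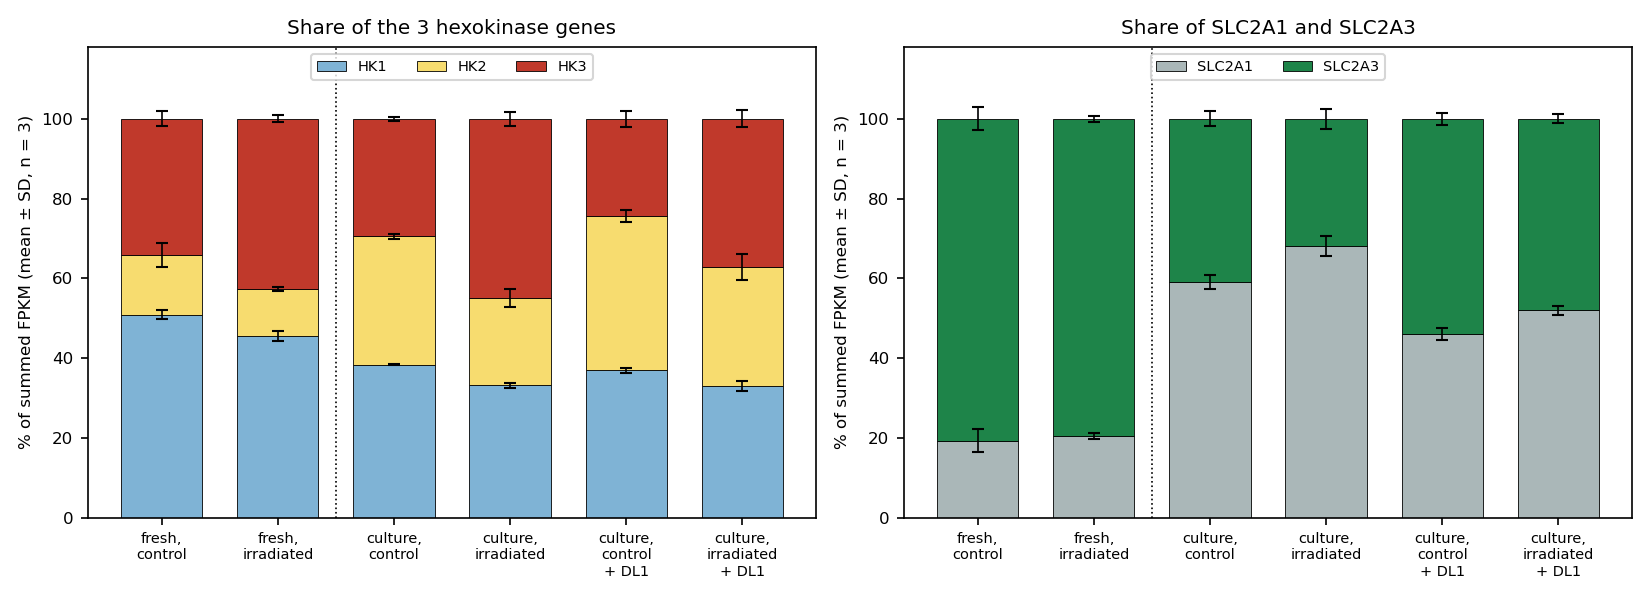
Share of each gene in the summed FPKM of the hexokinases HK1, HK2 and HK3 (left) and of the transporters SLC2A1 and SLC2A3 (right), as stacked bars of group means with SD (n = 3 libraries), for the freshly sorted groups left of the dotted line and the culture groups right of it. HK3 reaches 44.9% in irradiated cultures, and SLC2A3 falls from 80.7% in freshly sorted control cells to 40.9% in control cultures, across tables that were normalized separately.

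SLC2A3, the high-affinity transporter, had the opposite sign to HK3 in the 4 comparisons of cultures. Control cultures had 58.2, 56.5 and 57.4 FPKM and irradiated ones 34.0, 36.8 and 43.8. With DL1 it reached 90.1, 101.6 and 89.4 in control and 62.1, 69.7 and 70.9 in irradiated cultures. No group overlapped another, and the order from low to high was irradiated, control, irradiated with DL1 and control with DL1. SLC2A3 fell after irradiation without DL1 (-0.58 ± 0.084, adjusted p = 7.97e-04) and with it (-0.47 ± 0.084, adjusted p = 0.0138). The second call did not pass when irradiated replicate 1 with DL1 was left out (adjusted p = 0.0594). DL1 raised SLC2A3 in control cultures (0.70 ± 0.084, adjusted p = 7.79e-05) and in irradiated ones (0.81 ± 0.084, adjusted p = 1.55e-05), to 1.63 and 1.77 times the means without it.

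SLC2A1, the widespread transporter, passed in no comparison. Its group means lay between 73.2 ± 6.03 FPKM in irradiated cultures with DL1 and 83.0 ± 6.80 in control cultures, and neighbouring groups overlapped. SLC2A3 accounted for 40.9 ± 1.84% of the summed FPKM of both transporters in control cultures, 31.9 ± 2.53% in irradiated, 54.0 ± 1.52% in control with DL1 and 48.0 ± 1.13% in irradiated cultures with DL1. The 4 ranges of this share did not overlap.

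**Figure D3:**
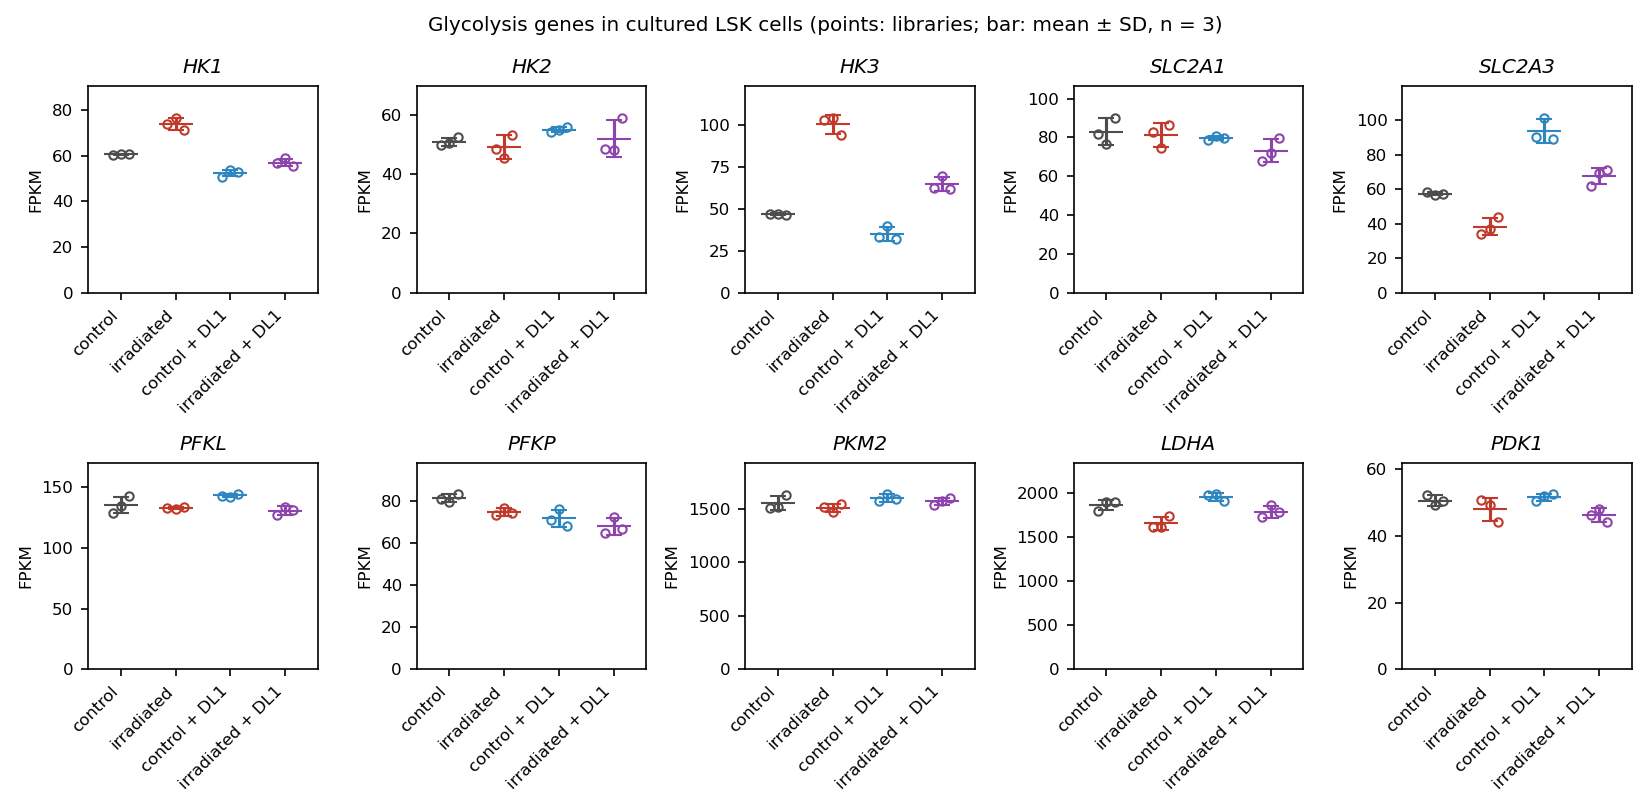
Level in FPKM of each of the 10 genes in the 12 culture libraries (open points), with the group mean and SD (n = 3). HK3 spans 31.8 to 104 FPKM and its 4 groups are separate, as are those of HK1 and SLC2A3, while PKM2 stays between 1469 and 1639.

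Among the phosphofructokinases, PFKL encodes the liver form and PFKP the platelet form. PFKL ranged from 127 to 145 FPKM over all cultures. With DL1 its 3 irradiated cultures (127, 134 and 131) lay below the 3 controls (143, 142 and 145), with a change of -0.13 ± 0.043 that did not pass (adjusted p = 0.131). PFKP had 81.1, 79.6 and 83.4 FPKM in control cultures and 71.1, 76.3 and 68.3 with DL1, and fell (-0.18 ± 0.053, adjusted p = 0.0266). That call did not pass without control replicate 1 or 3 or control replicate 1 or 3 with DL1, at adjusted p between 0.0673 and 0.116. In irradiated cultures the 3 values with DL1 (64.9, 72.4 and 66.7) were below the 3 without (73.3, 76.9 and 74.3), and the change of -0.14 ± 0.053 did not pass (adjusted p = 0.0549). With the replicate number as a block, limma gave an adjusted p of 0.0484 in the fit of all 4 groups and 0.0838 in a fit of these groups alone. PFKM, the muscle form and no member, held 6.49 ± 0.253% of the summed FPKM of the 3 genes in control cultures and 30.4 ± 2.57% in freshly sorted control cells.

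PKM2 ranged from 1469 to 1639 FPKM in cultures, above 99.8% of genes, and passed in no comparison (lowest adjusted p in cultures 0.376). The gene yields an M1 and an M2 form by splicing, and whether the listed row separates them is not stated. LDHA, which turns pyruvate into lactate, was the highest of the 10, above 99.9% of genes. It had 1797, 1896 and 1898 FPKM in control and 1614, 1613 and 1744 in irradiated cultures, which did not overlap, and fell by a small amount (-0.17 ± 0.055, adjusted p = 0.0361). The call did not hold without control replicate 2 or 3 or irradiated replicate 1 or 2, at adjusted p between 0.0809 and 0.127. With DL1 the values were 1975, 1989 and 1905 in control and 1726, 1860 and 1780 in irradiated cultures, again without overlap, and the change of -0.13 ± 0.055 did not pass (adjusted p = 0.233). The annotation also lists processed pseudogenes of Ldha, and how reads shared with them were counted is not stated. PDK1 ranged from 44.1 to 52.6 FPKM and passed in no comparison. With DL1 its irradiated cultures (46.3, 48.2 and 44.1) lay below the controls (50.5, 51.9 and 52.6), with a change of -0.16 ± 0.055 (adjusted p = 0.152).

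The groups did not overlap for HK1 and HK3 (higher) and SLC2A3, PFKP and LDHA (lower) after irradiation without DL1, where 17.5% of genes were separate and higher and 20.6% separate and lower. With DL1 they did not overlap for HK1 and HK3 (higher) and SLC2A3, PFKL, LDHA and PDK1 (lower), where the shares were 15.6 and 17.5%. Nothing is read from these counts, since the set was chosen on the same contrasts. For the difference between the irradiation changes with and without DL1, 0 of 9 members passed by limma, 1 (HK1) had an unadjusted p under 0.05 (10.4% of genes), and 9 of 12025 genes (0.0748%) passed. That last count ran from 0 to 189 when single cultures were left out, the 189 without irradiated replicate 3. The SE of the difference was 0.060 for HK1 and 0.12 for SLC2A3.

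In freshly sorted cells, HK3 again differed the most of the 10. It had 15.9, 18.0 and 16.2 FPKM in control and 27.4, 25.6 and 25.3 in irradiated libraries, or 16.7 ± 1.15 and 26.1 ± 1.13 (SD, n = 3), a ratio of 1.57 that was used in choosing the set. HK1 had 24.5, 26.0 and 24.1 in control and 28.8, 26.3 and 28.4 in irradiated libraries. These groups did not overlap, as was so for 7.42% of genes in that direction and 5.28% in the other, and the change of 0.16 ± 0.077 did not pass (adjusted p = 0.784). Of the other 9 members, 0 passed by limma, 0 had an unadjusted p under 0.05 (6.87% of genes), and 13 of 12903 genes (0.101%) passed, or 5 without irradiated replicate 1. SLC2A3 had 25.7, 25.9 and 35.5 in control and 23.6, 24.7 and 27.4 in irradiated libraries, which overlapped (-0.18 ± 0.13, adjusted p = 0.884). The remaining 7 had changes between -0.06 and 0.13, all with overlapping groups.

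**Figure D4:**
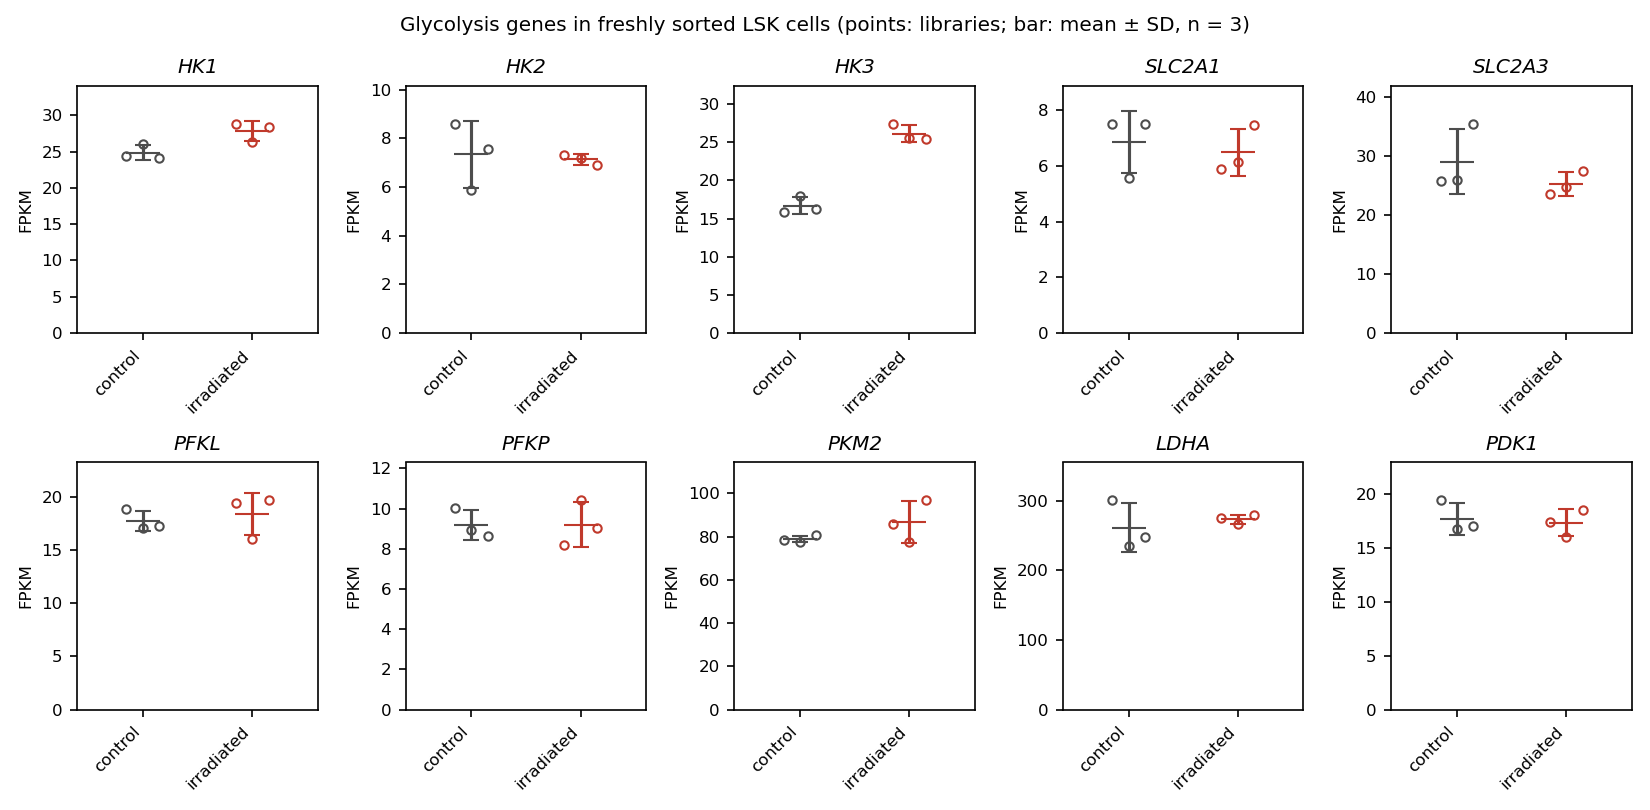
Level in FPKM of each of the 10 genes in the 6 freshly sorted libraries (open points), with the group mean and SD (n = 3). The irradiated libraries are separate from the controls for HK3 (25.3 to 27.4 against 15.9 to 18.0) and HK1, and the groups overlap for the other 8 genes.

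The freshly sorted profile of the set also differed in its order of levels. LDHA (261 ± 35.0 FPKM in control) and PKM2 (79.0 ± 1.54) led there too, at 97.8 and 93.0% of genes below them, while SLC2A1 (6.87 ± 1.12) and HK2 (7.36 ± 1.37) were the lowest, at 34.7 and 36.8%. HK1 held 50.8 ± 1.13% of hexokinase FPKM in control and 45.6 ± 1.22% in irradiated libraries, and HK3 held 34.1 ± 1.85 and 42.7 ± 0.851%. SLC2A3 held 80.7 ± 2.89 and 79.6 ± 0.819% of the FPKM of both transporters. LDHB, the other lactate dehydrogenase, held 12.8 ± 1.47% of their summed FPKM in control and 7.61 ± 0.812% in irradiated libraries, and its own fall narrowly missed the threshold (-0.73 ± 0.10, adjusted p = 0.0523). No test was made between the fresh and the culture table, which were normalized separately.

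Around the 10 genes, 8 lists of pathway genes were read from the same fits. Their counts stand beside the shares of all genes given above. These were 13.8% higher and 15.9% lower after irradiation without DL1, and 2.5 and 0.64% with it. For DL1 they were 13.9 and 12.3% in control and 24.4 and 17% in irradiated cultures. With 5 to 14 tested genes a list in cultures, nothing is read as particular to a list. Their median changes ran from -0.04 to 0.11 after irradiation without DL1 and from -0.11 to 0.15 with it. With DL1 against none they ran from -0.23 to 0.05 in control and from -0.32 to 0.09 in irradiated cultures, the lactate genes being lowest in both. With DL1 against none in control cultures, 2 rose and 3 fell of 9 pentose phosphate genes, 0 and 2 of 6 for fructose phosphate control, 0 and 2 of 5 for lactate and 2 and 1 of 12 for pyruvate entry. In irradiated cultures these counts were 1 and 2, 2 and 2, 0 and 3, and 4 and 3. In the middle and lower part of the pathway, 1 of 10 tested genes rose after irradiation without DL1 (GPI1, which isomerises glucose 6-phosphate, 0.13 ± 0.046, adjusted p = 0.0496). There 1 fell (ENO3, the muscle enolase, -0.30 ± 0.081, adjusted p = 0.0178). After irradiation with DL1, 0 passed by limma (1 at an unadjusted p under 0.05). DL1 raised ENO3 in control (0.45 ± 0.081, adjusted p = 0.00138) and irradiated cultures (0.67 ± 0.081, adjusted p = 5.17e-05), and ALDOC, an aldolase, fell in irradiated cultures (-0.71 ± 0.16, adjusted p = 0.00357). The pentose phosphate pathway branches off after hexokinase, and there 4 of 9 genes rose after irradiation without DL1 and 0 fell, with a median of 0.11. They were SHPK, PGD, PGLS and TALDO1. PGD, which makes NADPH, rose from 207 ± 5.25 to 247 ± 12 FPKM without DL1 (0.25 ± 0.049, adjusted p = 0.00355) and was the 1 of 9 that rose with DL1 (0.21 ± 0.049, adjusted p = 0.0420). DL1 lowered PGD in control (-0.16 ± 0.049, adjusted p = 0.0275) and irradiated cultures (-0.21 ± 0.049, adjusted p = 0.00522). In freshly sorted cells 0 of 9 passed by limma and 0 had an unadjusted p under 0.05, with a median of 0.11.

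The bifunctional enzymes PFKFB3 and PFKFB4 set the level of fructose 2,6-bisphosphate, which activates phosphofructokinase. PFKFB4 was among 6 tested genes of fructose phosphate control and rose after irradiation without DL1, from 6.16 ± 0.749 to 9.31 ± 1.48 FPKM (0.52 ± 0.11, adjusted p = 0.00441), as the only one of the 6. DL1 lowered it in control (-0.49 ± 0.11, adjusted p = 0.00460) and irradiated cultures (-0.69 ± 0.11, adjusted p = 3.12e-04). PFKFB3 fell with DL1 in both as well (-0.31 ± 0.052, adjusted p = 8.01e-04, and -0.38 ± 0.052, adjusted p = 1.24e-04). Among 6 tested transporters and kinases of other kinds, 1 fell after irradiation without DL1 (GALK1, galactokinase, -0.21 ± 0.069, adjusted p = 0.0406). In this list DL1 lowered the transporter SLC2A8 in control and irradiated cultures (-0.59 ± 0.11 and -0.63 ± 0.11) and raised ADPGK, a kinase that phosphorylates glucose with ADP (0.26 ± 0.050 and 0.31 ± 0.050).

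Lactate leaves cells through monocarboxylate transporters. Of 5 tested genes of lactate handling, SLC16A1 (MCT1) fell after irradiation without DL1 from 52.8 ± 3.08 to 42.6 ± 2.03 FPKM (-0.30 ± 0.057, adjusted p = 0.00320), while LDHB and SLC16A7, both under 4 FPKM, rose (0.36 ± 0.092 and 0.44 ± 0.14). With DL1 0 of 5 passed by limma and 0 had an unadjusted p under 0.05. SLC16A3 (MCT4), the main exporter of glycolytic cells, was lower with DL1 in control (-0.28 ± 0.061, adjusted p = 0.00449) and irradiated cultures (-0.33 ± 0.061, adjusted p = 0.00104). At the step into mitochondria, 2 of 12 tested genes rose and 2 fell after irradiation without DL1. PDK2, a kinase like PDK1, rose after irradiation without DL1 from 1.23 ± 0.0869 to 2.13 ± 0.268 FPKM (0.49 ± 0.093, adjusted p = 0.00338) and fell with DL1 in control and irradiated cultures (-0.54 ± 0.093 and -0.75 ± 0.093). PDK3, at 38.7 ± 1.12 FPKM in control cultures, rose with DL1 in both (0.36 ± 0.046 and 0.42 ± 0.046). BRP44L, the pyruvate carrier subunit now called Mpc1, rose after irradiation without DL1 (0.23 ± 0.055), while the pyruvate dehydrogenase genes PDHA1 and PDHX fell (-0.18 ± 0.046 and -0.22 ± 0.067).

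Of 13 tested regulators of glycolytic genes, 4 rose and 1 fell after irradiation without DL1. MLX, the partner of the glucose-sensing factors MLXIP and MLXIPL, rose (0.39 ± 0.046, adjusted p = 2.80e-04), as did TXNIP (0.38 ± 0.11, adjusted p = 0.0210) and ARRDC4 (0.35 ± 0.11, adjusted p = 0.0310), which both curb glucose uptake. MYC, which raises many glycolytic genes, fell (-0.34 ± 0.10, adjusted p = 0.0276). With DL1 MLX rose (0.25 ± 0.046, adjusted p = 0.0159) and MYCN fell (-0.85 ± 0.17, adjusted p = 0.0214). DL1 lowered HIF1A, the hypoxia factor subunit, in control (-0.38 ± 0.082, adjusted p = 0.00449) and irradiated cultures (-0.54 ± 0.082, adjusted p = 2.68e-04), and raised MYCN in both (2.29 ± 0.17 and 1.65 ± 0.17). Of 14 HIF targets, a list that holds SLC2A1 and is otherwise outside glycolysis, 4 rose after irradiation without DL1 and 0 fell. VEGFA was among those that rose (0.40 ± 0.069, adjusted p = 0.00195). After irradiation with DL1, 0 rose and 1 fell, and the medians were 0.09 without DL1 and -0.11 with it. Of 12 tested in freshly sorted cells 0 passed by limma, and 5 had an unadjusted p under 0.05 (6.87% of genes), with a median of -0.06. DL1 lowered 6 and raised 3 of the 14 in control cultures and lowered 6 and raised 1 in irradiated ones. In freshly sorted cells 1 of 14 regulators passed, HIF3A, an inhibitory relative of HIF1A, which fell from 7.25 ± 0.958 to 1.77 ± 0.426 FPKM (-1.58 ± 0.15, adjusted p = 0.00741).

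In the cultures, the sums of 3 lists of markers of maturing myeloid cells were higher after irradiation and lower with DL1, as HK3 was. The summed FPKM of 12 monocyte and macrophage markers ran from 2146 to 3152 in control, 4050 to 6154 in irradiated, 603 to 803 in control with DL1 and 1038 to 1325 in irradiated cultures with DL1. All 12 rose after irradiation without DL1 and 4 of 12 with it, and DL1 lowered 11 of 12 in control and 12 of 12 in irradiated cultures. The sum of 7 early granulocyte markers ran from 3837 to 4572, 6753 to 8100, 2856 to 3055 and 4158 to 4990 in the same order. After irradiation 7 of 7 rose with and without DL1, and DL1 lowered 6 of 7 in control and in irradiated cultures. The sum of 10 late neutrophil markers ran from 1208 to 1307, 2008 to 3253, 714 to 805 and 1250 to 1794. Of 8 tested, 5 rose after irradiation without DL1 and 4 with it. DL1 lowered 5 and raised 1 in control and lowered 7 and raised 1 in irradiated cultures. Over all genes, 13.8% rose after irradiation without DL1 and 2.5% with it, and DL1 lowered 12.3% in control and 17% in irradiated cultures. No marker of these 3 lists was at 0 in every library of a group. The part of such cells in the changes of HK3, HK1 and SLC2A3 was not tested.

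The 3 lists stood differently in 1 comparison of groups. Irradiated cultures with DL1 had more HK3 than control cultures without it (61.8 to 69.3 against 46.1 to 47.1 FPKM), lower monocyte and macrophage sums, and early granulocyte and late neutrophil sums that overlapped and reached higher. Of 6 tested LSK and stem cell markers, CD34 fell after irradiation without DL1 (-0.58 ± 0.067, adjusted p = 2.56e-04) and with it (-0.41 ± 0.067, adjusted p = 0.00795). FLT3 fell after irradiation without DL1 (-1.11 ± 0.13, adjusted p = 2.85e-04). DL1 raised FLT3 in control and irradiated cultures (0.96 ± 0.13 and 1.76 ± 0.13). Of the 6, DL1 raised 1 in control and 3 in irradiated cultures and lowered 0 in both, where 13.9 and 24.4% of genes rose. In freshly sorted cells the same marker sums overlapped between control and irradiated libraries, from 376 to 636 and 365 to 673 for monocytes and macrophages, 556 to 997 and 858 to 970 for early granulocytes, and 2127 to 4220 and 1746 to 3705 for late neutrophils. By limma 0 of 10, 0 of 7 and 0 of 10 of their tested genes passed there, and 1, 2 and 0 had an unadjusted p under 0.05. Their median changes were 0.08, 0.28 and -0.25, and 7 of 7 early granulocyte markers had values above 0. Of 7 megakaryocyte markers 0 passed in freshly sorted cells, but 6 had an unadjusted p under 0.05, with a median of 0.53. Of 8 LSK and stem cell markers 0 passed there by limma (lowest adjusted p = 0.0523), and 3 had such a p, with a median of 0.05. Of 7 mast cell and basophil, 6 lymphoid and 7 erythroid markers 0 passed, and 2, 2 and 1 had such a p. Over all genes, 6.87% had such a p there. In cultures only 3 megakaryocyte, 3 lymphoid and 2 erythroid markers were tested, of 8 listed in each. Of the tested markers of other lists, 4 of 9 mast cell and basophil, 3 of 3 megakaryocyte and 1 of 3 lymphoid ones rose after irradiation in cultures without DL1. There 1 of 2 erythroid and 1 of 3 lymphoid markers fell, where 13.8% of genes rose and 15.9% fell. With DL1, 1 of 9 mast cell and basophil markers rose, where 2.5% of genes rose and 0.64% fell. Of the megakaryocyte, lymphoid and erythroid markers tested with DL1, 0 of 3, 0 of 3 and 0 of 2 passed by limma.

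**Figure D5:**
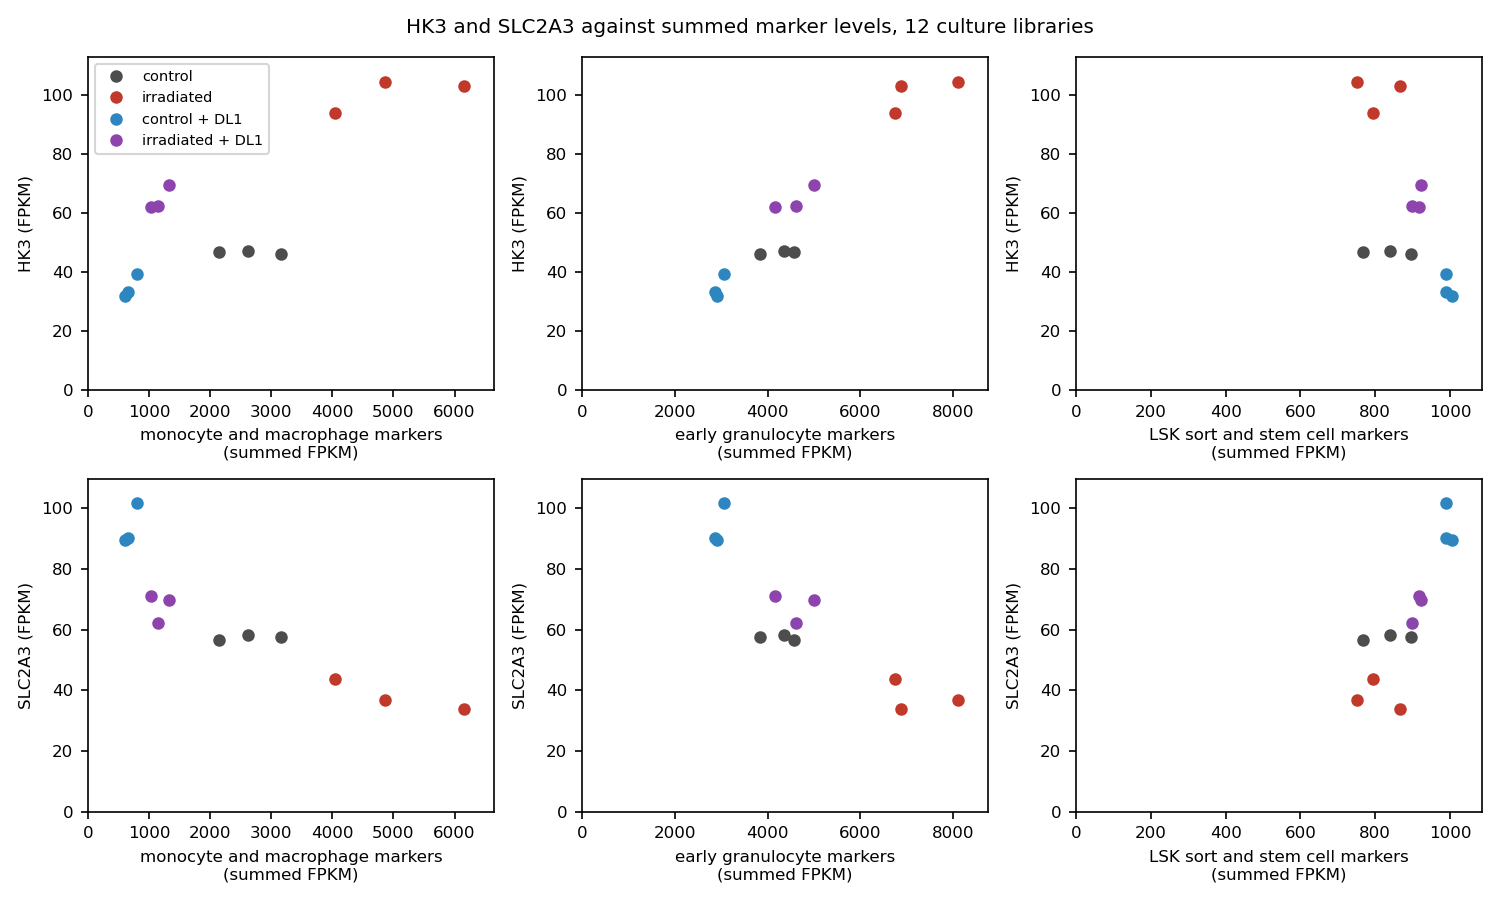
Level of HK3 (top) and SLC2A3 (bottom) in FPKM against the summed FPKM of monocyte and macrophage, early granulocyte, and LSK sort and stem cell markers, in the 12 culture libraries coloured by group. Irradiated cultures without DL1 have the highest monocyte and macrophage sums (4050 to 6154) and the highest HK3, and irradiated cultures with DL1 have more HK3 than control cultures at lower monocyte and macrophage sums.

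Over the 12 cultures, the genes whose log2(FPKM + 1) followed HK3 most closely were RNASET2A (r = 0.988), 1700020L24RIK (0.987), RNASET2B (0.987), CELSR3 (0.985) and TCN2 (0.980), out of 12010 genes. RNASET2A and RNASET2B are near-identical copies whose reads may have been shared. HK1 ranked 334 with r = 0.880, while SLC2A3 and LDHA ran the other way at -0.859 and -0.886. These values mix differences between the 4 groups with those within them. With group means removed, the closest were GLRX (0.917), TPST1 (0.913), ACYP1 (0.906), IDH1 (0.901) and SQRDL (0.897), and of the members PFKP ranked highest, at 51 with r = 0.805, followed by HK1 at 202 with 0.691. The points share libraries and depth, and the correlations are a description over 12 libraries.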

How the data were processed

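The authors deposited 2 tables of FPKM per gene, 1 for 6 freshly sorted and 1 for 12 cultured libraries. TopHat 1.4.1, Cufflinks 1.3.0 and Cuffdiff are named in the submitters' processing notes, which also give hg19, a human build, for these mouse samples. The build used, the annotation and any scaling between libraries are not given in the sources used here. FPKM carry no read counts, so relative depth was read from the steps between the lowest values.

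On log2(FPKM + 1), limma 3.58.1 (R 4.3.3) was run with its mean-variance trend. Genes averaging an FPKM of 1 or more in a table were tested (12903 fresh, 12025 cultured). The 4 culture groups shared 1 fit. P-values were adjusted by Benjamini-Hochberg over all genes tested, with a threshold of 0.05, and the fit was tested on simulated data. A pseudocount of 1 shrinks the fold changes of low genes. The 10 members and 16 further lists were chosen with earlier results of these data known. Of the 179 list entries, 3 were not found. Entries averaging an FPKM under 1 in a table were not tested there. In cultures, for example, 6 of 16 other hexose transporters and hexose kinases were tested. From each pathway list, genes that passed were named, at most the 4 with the largest change, or fewer. KIT, LY6A and the 5 genes most like HK3 by correlation were named by rule, and LDHB in fresh cells and PFKM after their values were seen.

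Groups follow titles and conditions, as the source field of control samples names irradiated cells. The column IR1DL1 was taken as irradiated replicate 1 with DL1. Whether cultures of the same number share a mouse is not stated. Irradiated cultures with and without DL1 were the 1 of 6 pairs of culture groups in which every pair of the same number deviated together (correlations 0.23, 0.145 and 0.348). A replicate block in these 2 groups alone was therefore added as an alternative. Values given without mention of a block come from the fit without it, and blocked values stand where a call changes. With the block in these 2 groups alone, limma gave an adjusted p of 0.00173 for HK1, 2.17e-04 for HK3 and 1.12e-04 for SLC2A3. The alternatives changed the pseudocount to 0.1 or 5, dropped the filter or set it at 5, used median-ratio scaling, rescaling after removal of ribosomal and small RNA rows, the 2 compared groups alone, limma without a trend, a replicate block, and each library left out.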

Additional observations from a re-analysis of the deposited data

Results flagged for a closer look

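The platelet chemokine genes PF4 and PPBP, from the list of megakaryocyte markers, had irradiation changes of opposite sign in the 2 culture settings, and the difference between the changes passed the test. PF4 went from 68.9 ± 10.6 to 177 ± 28.9 FPKM without DL1 and from 73.2 ± 4.13 to 50.6 ± 9.45 with it (SD, n = 3), a difference of -1.89 ± 0.20 (limma, adjusted p = 0.00958). PPBP went from 16.7 ± 3.90 to 51.2 ± 11.4 without DL1 and from 14.8 ± 2.15 to 9.37 ± 1.96 with it, a difference of -2.17 ± 0.28 (adjusted p = 0.0143). Neither call was stable. The PF4 difference missed the threshold in 3 of 20 alternatives, without control replicate 1, irradiated replicate 2 or irradiated replicate 2 with DL1 (adjusted p up to 0.0575). The PPBP difference missed it in 8 of 20, with no filter, with the replicate block, without those 3 libraries, and without replicate 2 or 3 of the controls with DL1 or replicate 1 of the irradiated cultures with DL1 (adjusted p up to 0.0722). The differences themselves stayed between -2.03 and -1.78 for PF4 and between -2.37 and -1.83 for PPBP. In cultures with DL1 alone, neither change passed (adjusted p = 0.0702 and 0.124). Of the 9 glycolysis genes tested for this difference, 0 passed by limma and 1 (HK1) had an unadjusted p under 0.05.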

How the results depend on the processing

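HK1 and SLC2A3 after irradiation without DL1, and HK1, HK3 and SLC2A3 with DL1 in control and irradiated cultures, kept their direction and their call under each other setting tried. Of 950 alternative values of 60 gene changes, 903 kept direction and side of the threshold, 12 no longer passed, 8 newly passed and 27 changed sign, all 27 in changes that had not passed. The count of members passing after irradiation with DL1 was 2 when the 2 compared groups were fitted alone (PFKL joined, adjusted p = 0.0459). The count with DL1 in irradiated cultures was 5 with median-ratio scaling (SLC2A1 and PFKP joined, adjusted p = 0.0405 and 0.0127). The LDHA call after irradiation was lost in 7 of 15 alternatives, among them no filter (adjusted p = 0.145), median-ratio scaling (0.0628) and the 2 groups alone (0.163). Over all genes, the counts were 4 with no filter in fresh cells, 1657 with 2 groups alone for irradiation without DL1, and 222 with no filter and 997 with 2 groups alone for irradiation with DL1. For the difference between changes they were 18 with a pseudocount of 5, 3 with no filter, 5 with a mean FPKM of at least 5 and 3 with the replicate block. Leaving out single libraries gave members passing of 0 to 0 (fresh), 2 to 3 (irradiation), 0 to 1 (irradiation with DL1), 3 to 4 (DL1, control), 3 to 4 (DL1, irradiated) and 0 to 0 (difference), and all genes passing of 5 to 15, 1876 to 4700, 105 to 285, 2213 to 2911, 3853 to 6004 and 0 to 189. Median-ratio scaling turned SLC2A1 to 0.012, PFKL to 0.015 and PKM2 to 0.0025 after irradiation without DL1, PDK1 to -0.012 with DL1 in control cultures (-0.0056 when rescaled without ribosomal rows), PKM2 to -0.00045 with DL1 in irradiated cultures and PKM2 to -0.0039 for the difference. Single libraries left out moved fresh values over 0 for HK2 (-0.16 to 0.082), PFKP (-0.086 to 0.071), PDK1 (-0.076 to 0.036) and PFKL (-0.0038 to 0.13). The same held in cultures for SLC2A1 (-0.084 to 0.031) and PFKL (-0.063 to 0.0095) after irradiation without DL1, SLC2A1 (-0.11 to 0.0054) with DL1 in control and HK2 (-0.019 to 0.14) in irradiated cultures, and for the difference for HK2 (-0.13 to 0.029), PFKP (-0.0053 to 0.083) and PKM2 (-0.023 to 0.031). The causes were not tested. Correlations of deviations between libraries of the same number ran from 0.0572 to 0.211 in 3 fresh and from -0.168 to 0.348 in 18 culture pairs. With the replicate block in all groups the counts of members passing were 0, 3, 1, 4, 4 and 0 in the same order, and PFKP passed with DL1 in irradiated cultures (adjusted p = 0.0484). With the block in the irradiated groups alone, chosen after seeing the data, the count there was 3 and PFKP did not pass (adjusted p = 0.0838). The block changed no other call of a member. Scaling shifted the median of all genes by at most 0.053. The lowest depth, 0.488, was that of 1 irradiated culture with DL1, and FPKM give no interval for counting error.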
